A study of Mus musculus with 15 samples.

Results

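The 7 genes described here set or control the chloride gradient of neurons: the cation-chloride cotransporters Slc12a5 and Slc12a2, the kinase genes Wnk1, Wnk2 and Wnk3, and the kinase genes Stk39 and Oxsr1. They were chosen by gene symbol, are 7 of 56748 gene identifiers in the count table, and all 7 were among the 22998 genes tested. Total RNA of dissected cortex was sequenced in bulk from C57BL/6J wild-type mice, killed 3 hours after 1 session of magnetic brain stimulation. The groups were 5 animals given intermittent theta-burst stimulation (iTBS), 5 given continuous theta-burst stimulation (cTBS) and 5 given sham stimulation. Each group is a bulk dissection of many cell types from animals with no transgene, and age is not stated in the labels. The tissue is called somatosensory in the titles of the samples, but sensorimotor in the design text.

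Neuronal chloride is set by opposed transporters of the SLC12 family. KCC2, the product of Slc12a5, is found in neurons and carries chloride out with potassium, which lets GABA-A receptors inhibit mature neurons. NKCC1, the product of Slc12a2, carries chloride in with sodium and potassium and is also made in glia, vessels and choroid plexus. WNK kinases sense chloride and activate the kinases SPAK (Stk39) and OSR1 (Oxsr1), which phosphorylate NKCC1 and the KCC proteins, raising import and lowering export. The question taken up was whether transcripts for this machinery, and the exporter to importer balance, differed between iTBS, cTBS and sham.

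The libraries held 15385070 to 47807723 counts each, and each member had at least 725 counts in each library. Markers of cortical excitatory neurons summed to between 3647 and 5306 counts scaled to a common library size (CPM) across the 15 libraries. Markers of striatal projection neurons summed to between 377 and 1662 CPM, and their part in the member values was not tested. Markers of choroid plexus stood out in 3 libraries, cTBS 4 with a sum of 278 CPM, sham 2 with 283 CPM and sham 5 with 301.7 CPM, and summed to at most 85.1 CPM elsewhere. Nuclear-retained noncoding RNAs summed to between 6135 and 16093 CPM in iTBS, 2789 and 7670 CPM in cTBS, and 3924 and 16686 CPM in sham, with all 10 listed genes detected. Several lists of cell type markers also leaned higher in cTBS, though no marker passed the test in edgeR (0 in each list). With cTBS over sham, values above 0 were found for 12 of 12 myelin markers (median log2 fold change 0.21), 7 of 7 of inhibitory neurons (0.17), 8 of 8 of microglia (0.17), 8 of 9 of astrocytes (0.13) and 9 of 9 of striatal neurons (0.68), beside 46.5% of all genes. General neuron markers were above 0 in 7 of 9 (0.05) and oligodendrocyte precursor markers in 7 of 9 (0.15). Endothelial and mural markers, at 5 of 8 (0.02), and cortical excitatory neuron markers, at 4 of 6 (0.01), were nearly level. Choroid plexus markers, at 1 of 12 (-0.77), and thalamic neuron markers, at 0 of 7 (-0.23), leaned lower. Summed myelin markers ran from 2613 to 4121 CPM in cTBS and from 2426 to 3524 CPM in sham. With iTBS over cTBS, 0 of 12 myelin, 1 of 7 inhibitory neuron, 1 of 8 microglial, 0 of 9 astrocyte and 0 of 9 striatal markers were above 0, beside 53.9% of all genes. In the same comparison 1 of 9 general neuron, 1 of 9 oligodendrocyte precursor, 2 of 12 choroid plexus and 2 of 7 thalamic markers were above 0. So were 7 of 8 endothelial and mural and 3 of 6 cortical excitatory neuron markers. The part of these cell types in the cTBS values of single genes was not tested, apart from fits with the myelin level as a covariate. In those fits 0 members passed. In bulk tissue, fewer cells of a type and less RNA per cell cannot be told apart.

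The exporter gene Slc12a5 was the most abundant member. It was at 607, 550, 580, 538 and 641 CPM in iTBS 1 to 5, at 602, 561, 544, 608 and 592 CPM in cTBS 1 to 5, and at 549, 506, 544, 608 and 650 CPM in sham 1 to 5. The 3 groups overlapped over most of their range, and the lowest and the highest library were both sham animals. Slc12a5 averaged 583 ± 42.2 CPM in iTBS, 581 ± 27.7 CPM in cTBS and 571 ± 57.1 CPM in sham (SD, n = 5 each). The log2 fold change was 0.03 ± 0.07 (SE) for iTBS against sham (edgeR quasi-likelihood test, adjusted p = 1.00) and 0.03 ± 0.07 for cTBS against sham (adjusted p = 0.853). The interval of 2 SE around the iTBS value ran from -0.12 to 0.18, and that around the cTBS value from -0.12 to 0.17. For iTBS against cTBS the log2 fold change was 0.00 ± 0.07 (adjusted p = 0.976).

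A count for Slc12a5 sums transcripts from more than 1 start, since the table of RefSeq windows holds 2 for this gene, 7142 bases apart on chromosome 2. The upstream start belongs to the KCC2a isoform and the downstream one to KCC2b, the main form of the mature brain, and gene counts cannot separate them. The windows are printed 5′ to 3′ from 250 bases before to 50 after each start (RefSeq, GRCm38.p6, plus strand, chr2:164960596-164960895 and chr2:164967738-164968037), because they are the sequences whose output the exporter count adds up. Capitals mark the E-box CACGTG, a palindrome bound by upstream stimulatory factors among others, which a search of both strands found in the downstream window and not in the upstream one.
Slc12a5 upstream start: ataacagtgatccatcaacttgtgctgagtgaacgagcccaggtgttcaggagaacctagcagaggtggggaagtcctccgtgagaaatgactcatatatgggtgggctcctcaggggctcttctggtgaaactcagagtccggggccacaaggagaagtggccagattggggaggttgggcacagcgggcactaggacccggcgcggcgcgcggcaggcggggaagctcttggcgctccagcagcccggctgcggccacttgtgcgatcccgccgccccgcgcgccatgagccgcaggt
Slc12a5 downstream start: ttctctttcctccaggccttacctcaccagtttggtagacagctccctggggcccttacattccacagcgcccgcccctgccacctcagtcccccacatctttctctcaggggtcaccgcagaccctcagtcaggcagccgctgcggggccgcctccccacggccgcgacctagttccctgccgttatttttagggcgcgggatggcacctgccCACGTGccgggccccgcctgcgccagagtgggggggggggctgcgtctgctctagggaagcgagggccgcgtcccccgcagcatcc
The same 6 letters occurred in 7.15% of 32851 windows of this length. Windows were found for 6 of the 7 members, all but Slc12a2.

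The importer gene Slc12a2 was at 84.7, 87.8, 89.6, 78.8 and 85.5 CPM in iTBS 1 to 5, at 90.9, 82.4, 79.5, 86.9 and 94.2 CPM in cTBS 1 to 5, and at 86.2, 108, 80.5, 76.1 and 83.7 CPM in sham 1 to 5. The stimulated groups lay inside the sham range, and sham 2 stood above all other libraries. The means were 85.3 ± 4.10 CPM in iTBS, 86.8 ± 6.00 CPM in cTBS and 86.9 ± 12.4 CPM in sham (SD, n = 5 each). The log2 fold change was -0.03 ± 0.08 (SE) for iTBS against sham (edgeR, adjusted p = 1.00), with an interval of 2 SE from -0.19 to 0.14. It was -0.00 ± 0.08 for cTBS against sham (adjusted p = 0.988), with an interval from -0.16 to 0.16. For iTBS against cTBS it was -0.03 ± 0.08 (adjusted p = 0.859).

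**Figure D1:**
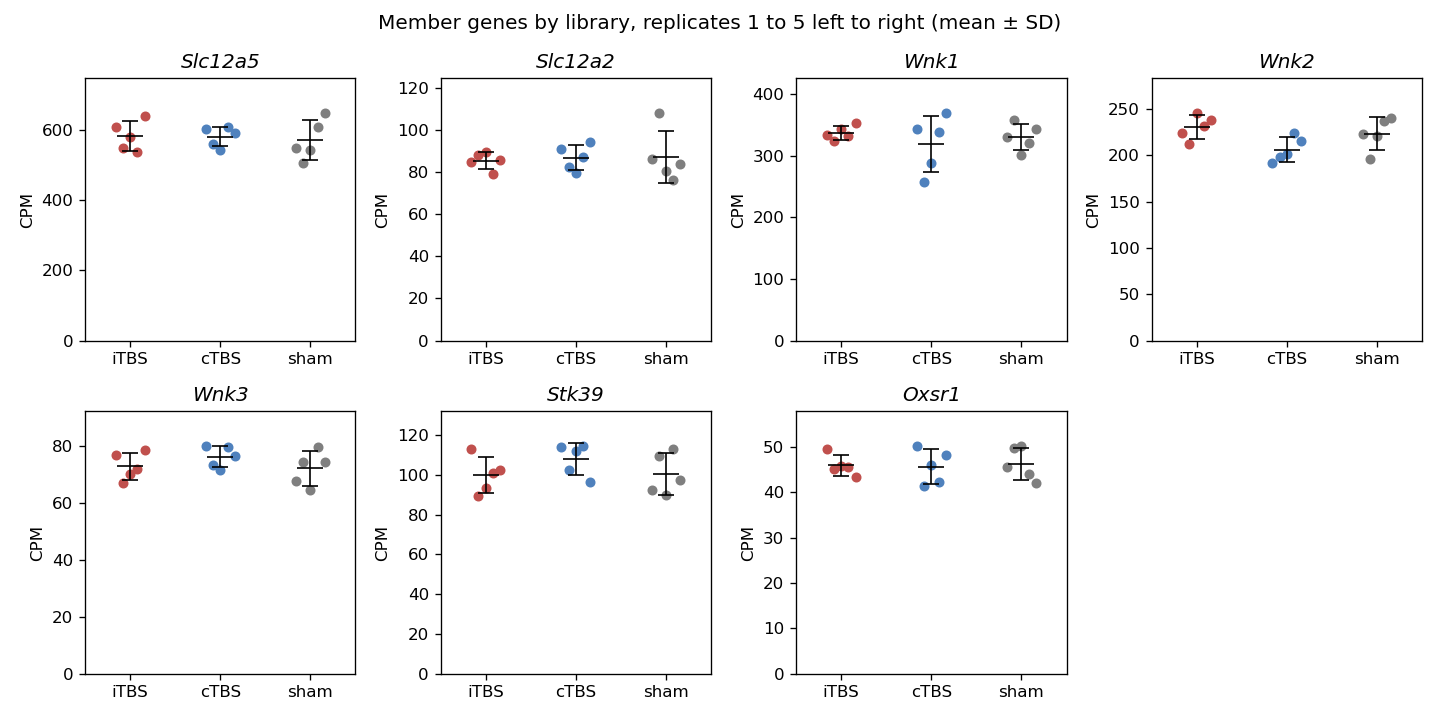
Scaled counts (CPM) of the 7 genes in each library of the iTBS, cTBS and sham groups. Points are libraries, replicates 1 to 5 from left to right, and bars are the mean ± SD of 5 libraries. The groups overlap for every gene; Slc12a2 reaches 108 CPM in sham 2 and Wnk1 256 CPM in cTBS 2.

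The balance was taken as the log2 of Slc12a5 counts over Slc12a2 counts within a library, a measure that needs no scaling between libraries. It was 2.84, 2.65, 2.69, 2.77 and 2.91 in iTBS 1 to 5, 2.73, 2.77, 2.78, 2.81 and 2.65 in cTBS 1 to 5, and 2.67, 2.23, 2.76, 3.00 and 2.96 in sham 1 to 5. The values of the stimulated libraries all fell between the lowest and the highest sham value. As a plain ratio, exporter counts were 6.85 ± 0.51 times importer counts in iTBS, 6.71 ± 0.27 times in cTBS and 6.71 ± 1.32 times in sham (SD, n = 5 each).

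The balance did not pass the test in any of the 3 comparisons. It was 2.77 ± 0.11 in iTBS and 2.72 ± 0.31 in sham (log2, SD, n = 5 each), a difference of 0.05 ± 0.15 (SE; two-sided exact permutation p = 0.810, adjusted p = 0.905 over the 3 comparisons). It was 2.75 ± 0.06 in cTBS and 2.72 ± 0.31 in sham, a difference of 0.02 ± 0.14 (exact permutation p = 0.905, adjusted p = 0.905). For iTBS against cTBS the difference was 0.03 ± 0.05 (exact permutation p = 0.651, adjusted p = 0.905). With 5 against 5 the smallest p these tests can give is 0.00794. Intervals of 2 SE ran from a 0.846-fold to a 1.27-fold ratio for iTBS over sham, from 0.837-fold to 1.24-fold for cTBS over sham, and from 0.944-fold to 1.10-fold for iTBS over cTBS.

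Sham 2 had both the highest importer and the lowest exporter level of the 15 libraries, and its ratio of 4.68 was the lowest. Without it, the sham balance was 2.85 ± 0.16 (SD, n = 4), and both differences from sham took the other sign, at -0.07 ± 0.09 for iTBS (exact permutation p = 0.413) and -0.10 ± 0.08 for cTBS (exact permutation p = 0.254). Thalamic neuron markers, 7 of 7 detected, summed to 508 CPM in sham 2 and to between 240 and 285 CPM in the other 14 libraries. Its choroid plexus markers, 12 of 12 detected, summed to 283 CPM. In cTBS 4 and sham 5, the other libraries high in choroid plexus markers, Slc12a2 was at 86.9 and 83.7 CPM. The part of these tissues in the importer level of sham 2 was not tested. Without these 3 libraries, the difference in balance was -0.04 ± 0.11 for iTBS against sham and -0.08 ± 0.10 for cTBS against sham.

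**Figure D2:**
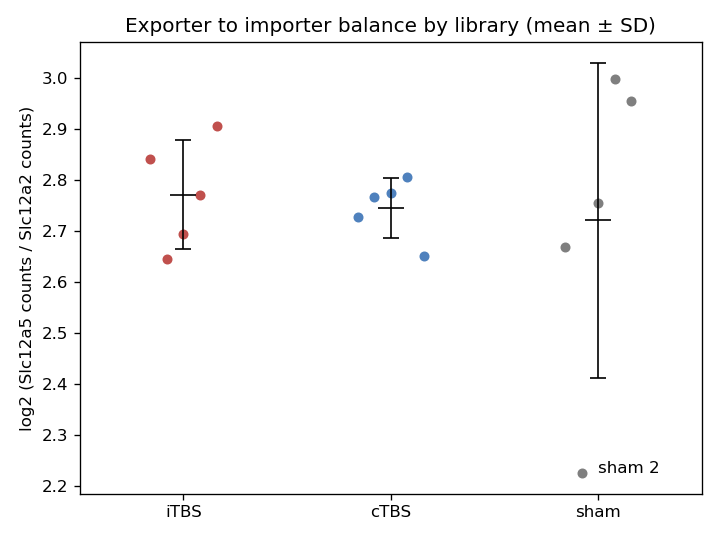
Log2 ratio of Slc12a5 to Slc12a2 counts in each library of the iTBS, cTBS and sham groups, with the mean ± SD of 5 libraries. The iTBS and cTBS libraries sit between 2.65 and 2.91, within the sham range of 2.23 (sham 2) to 3.00; the vertical axis does not start at 0.

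**Figure D3:**
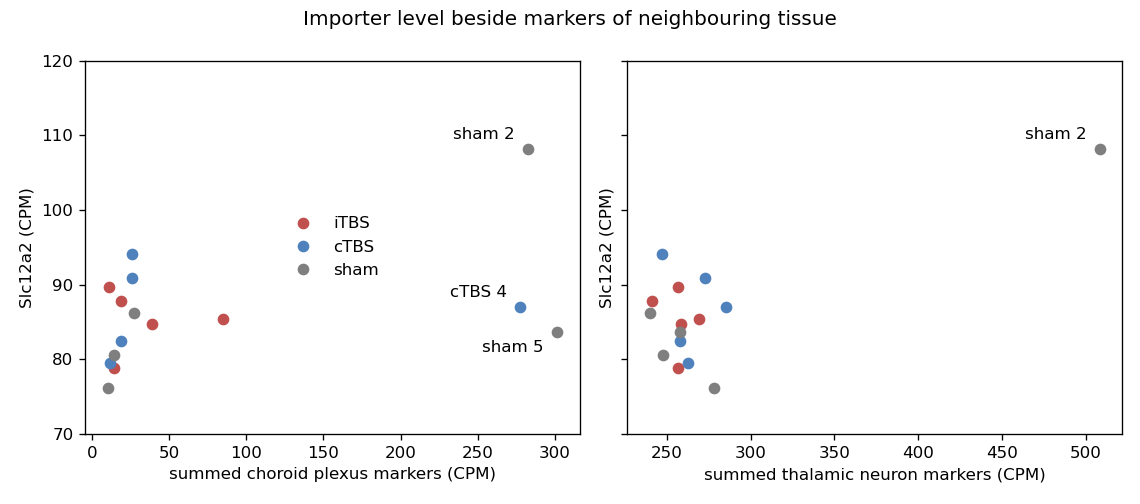
Slc12a2 in CPM against the summed CPM of choroid plexus markers (left) and of thalamic neuron markers (right), 1 point per library, coloured by group; apart from the horizontal axis on the left, no axis starts near 0. Sham 2 is high on both marker sums and at 108 CPM of Slc12a2, while cTBS 4 and sham 5, also high in choroid plexus markers, are at 86.9 and 83.7 CPM.

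Levels of different genes were compared per length, as counts per kilobase of annotated exon after the same scaling (RPKM). On this scale Slc12a5 was at 77.7 ± 5.52 RPKM (SD, 15 libraries) and Slc12a2 at 7.91 ± 0.71 RPKM. Between these cotransporters lay, in falling order, Wnk2 at 26.0 ± 2.04 RPKM, Stk39 at 20.7 ± 1.90, Wnk1 at 14.4 ± 1.26 and Oxsr1 at 8.59 ± 0.57, and Wnk3 was lowest at 6.96 ± 0.46 RPKM. Slc12a5 was above Wnk2 in 15 of 15 libraries, Oxsr1 above Slc12a2 in 13 and Slc12a2 above Wnk3 in 14. The order of the lower genes depends on the length used: over the longest coding transcript, Slc12a2 was at 13.2 RPKM, above Oxsr1 at 9.89 RPKM in 15 of 15 libraries. Stk39 and Wnk1 were level on that scale, at 29.1 ± 2.66 and 29.0 ± 2.53 RPKM. The exporter to importer ratio per length was 9.91 ± 1.13 over all annotated exons and 7.31 ± 0.84 over the longest coding transcript (SD, 15 libraries).

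Among the WNK kinases, Wnk2 had the smallest p of the members. WNK2 is abundant in brain. Wnk2 was at 224, 212, 246, 231 and 239 CPM in iTBS 1 to 5, at 192, 198, 201, 224 and 216 CPM in cTBS 1 to 5, and at 223, 196, 221, 237 and 241 CPM in sham 1 to 5. The iTBS libraries were mostly above the cTBS libraries, with overlap between 212 and 224 CPM. Its means were 231 ± 13.1 CPM in iTBS and 206 ± 13.3 CPM in cTBS (SD, n = 5 each), a log2 fold change of 0.16 ± 0.07 (SE; edgeR, unadjusted p = 0.0270, adjusted p = 0.121). The call was not made by edgeR, and was made by limma-voom with quality weights (0.19 ± 0.06, adjusted p = 0.0295), under which 6853 of all tested genes were called. With no filter on low counts it was 0.10 ± 0.08 by edgeR. For cTBS against sham the log2 fold change was -0.12 ± 0.07 (edgeR adjusted p = 0.275), and for iTBS against sham 0.04 ± 0.07 (adjusted p = 1.00). The level of nuclear-retained RNAs also differed between the stimulated groups, at 7.94 ± 0.54 in iTBS and 6.98 ± 0.58 in cTBS (mean log2 CPM, SD, n = 5 each). With that level as a covariate the Wnk2 estimate for iTBS against cTBS was larger, at 0.21 ± 0.07 beside 0.16 ± 0.07 without it. Its adjusted p was 0.553 by edgeR, a value that also depends on the p of all other tested genes.

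Wnk1, the widely expressed WNK kinase, was at 334, 324, 343, 332 and 353 CPM in iTBS 1 to 5, at 344, 256, 288, 338 and 370 CPM in cTBS 1 to 5, and at 329, 357, 302, 321 and 343 CPM in sham 1 to 5. The cTBS libraries spread most, since 2 of them were the lowest of all 15 and another was the highest. The log2 fold change of Wnk1 was 0.03 ± 0.08 for iTBS against sham (edgeR, adjusted p = 1.00) and -0.05 ± 0.08 for cTBS against sham (adjusted p = 0.732). Wnk3, an X-linked kinase gene expressed in neurons, was at 76.8, 67.0, 70.1, 71.7 and 78.5 CPM in iTBS 1 to 5, at 80.1, 73.4, 71.5, 79.6 and 76.3 CPM in cTBS 1 to 5, and at 67.6, 74.5, 64.4, 79.5 and 74.3 CPM in sham 1 to 5. The groups overlapped, with the narrowest range in cTBS, whose lowest library was above 2 iTBS and 2 sham libraries. Its log2 fold change was 0.02 ± 0.06 for iTBS against sham (edgeR, adjusted p = 1.00) and 0.08 ± 0.06 for cTBS against sham (adjusted p = 0.443). Wnk3 shares exon sequence with the antisense gene A230072E10Rik, so its counts are uncertain where the strand setting is not stated.

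Of the kinases that act directly on the cotransporters, Stk39 was at 113, 89.4, 93.5, 101 and 103 CPM in iTBS 1 to 5, at 114, 102, 112, 115 and 96.6 CPM in cTBS 1 to 5, and at 92.1, 109, 89.9, 113 and 97.4 CPM in sham 1 to 5. The highest library was a cTBS animal, and the tops of the 3 ranges lay close together. Stk39 averaged 108 ± 8.09 CPM in cTBS and 100 ± 10.4 CPM in sham (SD, n = 5 each), a log2 fold change of 0.10 ± 0.08 (edgeR, adjusted p = 0.415); for iTBS against sham it was -0.01 ± 0.08 (adjusted p = 1.00). Adjusted for the level of nuclear RNA, the cTBS value of Stk39 was -0.04 ± 0.06 and that of Wnk3 -0.03 ± 0.05, each of the other sign. That level itself averaged 6.98 ± 0.58 in cTBS and 7.87 ± 0.73 in sham (mean log2 CPM, SD, n = 5 each). The level and the treatment therefore cannot be told apart in this fit. In the same fit Slc12a5 was at -0.07 ± 0.07 for cTBS against sham (edgeR adjusted p = 0.904), beside 0.03 ± 0.07 in the main test. Slc12a2 was at 0.04 ± 0.09 (adjusted p = 0.974), beside -0.00 ± 0.08. Since its main value was near 0, Slc12a2 had the other sign in 8 of 11 other settings, this fit included. Oxsr1 had the narrowest range of the members, from 41.4 to 50.3 CPM over all 15 libraries. It averaged 45.9 ± 2.25 CPM in iTBS, 45.7 ± 3.84 CPM in cTBS and 46.3 ± 3.54 CPM in sham (SD, n = 5 each). Its log2 fold change was -0.01 ± 0.07 for iTBS against sham (edgeR, adjusted p = 1.00) and -0.02 ± 0.07 for cTBS against sham (adjusted p = 0.873). As a log2 value, the ratio of Stk39 to Oxsr1 counts was 1.12 ± 0.11 in iTBS, 1.24 ± 0.16 in cTBS and 1.11 ± 0.20 in sham.

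Of the 6 members whose windows were searched, only Oxsr1 had one that held the full cAMP response element TGACGTCA, the palindrome bound by the activity-regulated factor CREB. The window is printed for that reason (RefSeq, GRCm38.p6, minus strand, chr9:119322378-119322677), with the element in capitals.
Oxsr1: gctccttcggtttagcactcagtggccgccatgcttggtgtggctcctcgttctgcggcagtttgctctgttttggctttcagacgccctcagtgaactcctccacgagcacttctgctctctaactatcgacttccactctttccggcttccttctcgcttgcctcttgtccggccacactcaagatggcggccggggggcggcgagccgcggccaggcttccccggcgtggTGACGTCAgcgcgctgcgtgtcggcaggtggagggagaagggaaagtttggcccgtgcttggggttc
Both strands were searched in the 7 windows of 6 members, and the element occurred in 1.79% of all 32851 windows. The GC box GGGCGG, a site for SP1-type factors, was found in 5 of the 7 windows, against 35.7% of all windows. These matches describe letters and say nothing of binding.

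Counted together, 0 of 7 members passed in any comparison, where 0% of all tested genes did (edgeR, adjusted p under 0.05). For iTBS against sham, 0 members had an unadjusted p under 0.05, against 1.93% of all tested genes, and their median log2 fold change was 0.02, against -0.00 over all genes. For cTBS against sham, 0 members did, against 24.4% of all genes, with a median of -0.00 against -0.02. For iTBS against cTBS, 1 member did, Wnk2, against 30.6% of all genes, with a median of 0.00 against 0.03. Values above 0 were found for 4 of 7 members when iTBS was set against sham (49.5% of all genes), for 3 with cTBS over sham (46.5%) and for 4 with iTBS over cTBS (53.9%). Each member's groups overlapped; an absence of overlap was seen in 0.452% of all genes between iTBS and sham, 1.34% between cTBS and sham, and 3.92% between iTBS and cTBS. The comparisons with sham share the sham libraries, and each comparison with cTBS shares the cTBS libraries. DESeq2 also called 0 members, but unlike edgeR it called other genes in both comparisons with cTBS, as counted in the last section.

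**Figure D4:**
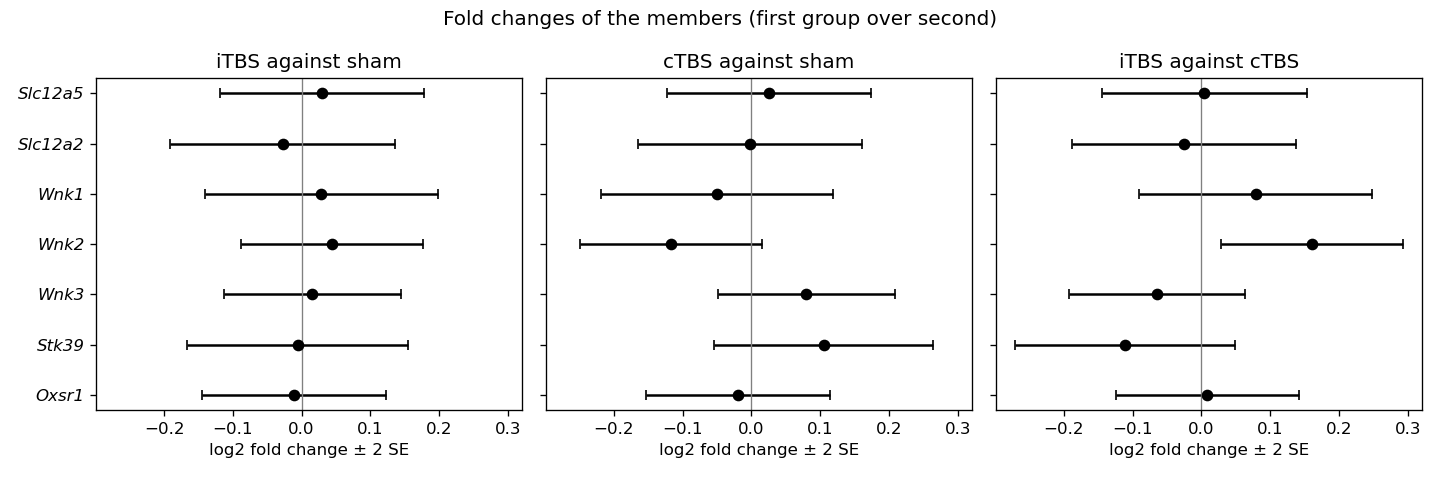
Log2 fold changes of the 7 genes (edgeR, first-named group over second) with bars of 2 SE, in the 3 pairs of groups. Bars cross 0 except that of Wnk2 for iTBS against cTBS, at 0.16 ± 0.07 (SE), which did not pass after adjustment.

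The libraries differed more in nuclear-retained RNA than in any member, and some members moved with it. Over deviations from group means in 15 libraries, Wnk3 followed the nuclear RNA level inversely. Its Pearson r was -0.843 (permutation p = 9.00e-05; 7.20e-04 after adjustment over the 8 relations tested) and its Spearman rho -0.836 (permutation p = 2.20e-04, adjusted p = 8.80e-04). Stk39 did so with r = -0.810 (permutation p = 2.80e-04, adjusted p = 0.00112) and rho = -0.868 (permutation p = 9.00e-05, adjusted p = 7.20e-04). For Slc12a5, r was -0.645 (permutation p = 0.00973, adjusted p = 0.0259) and rho -0.636 (permutation p = 0.0120, adjusted p = 0.0321). Without cTBS 4 and sham 4, the libraries farthest from the median, r was -0.811 for Wnk3, -0.770 for Stk39 and -0.621 for Slc12a5. Libraries with less nuclear RNA thus had more of these 3 transcripts. The share of all tested genes that follow this level was not counted. The relation is therefore not shown to be particular to these members. Slc12a2 had r = 0.186 (permutation p = 0.514, adjusted p = 0.514) and rho = 0.0893 (permutation p = 0.753). Wnk1, Wnk2 and Oxsr1 had r between -0.317 and 0.192 and adjusted p of at least 0.396. For the balance, r was -0.497 (permutation p = 0.0566, adjusted p = 0.113) and rho -0.604 (permutation p = 0.0189, adjusted p = 0.0379), and r was -0.313 without cTBS 4 and sham 4. The relation of the balance thus passed by rank only and was weaker without those libraries. The permutations exchanged the 15 deviations freely, although the means of 3 groups had been removed from them. The p of these relations can therefore be too small, which matters most for those near the threshold.

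**Figure D5:**
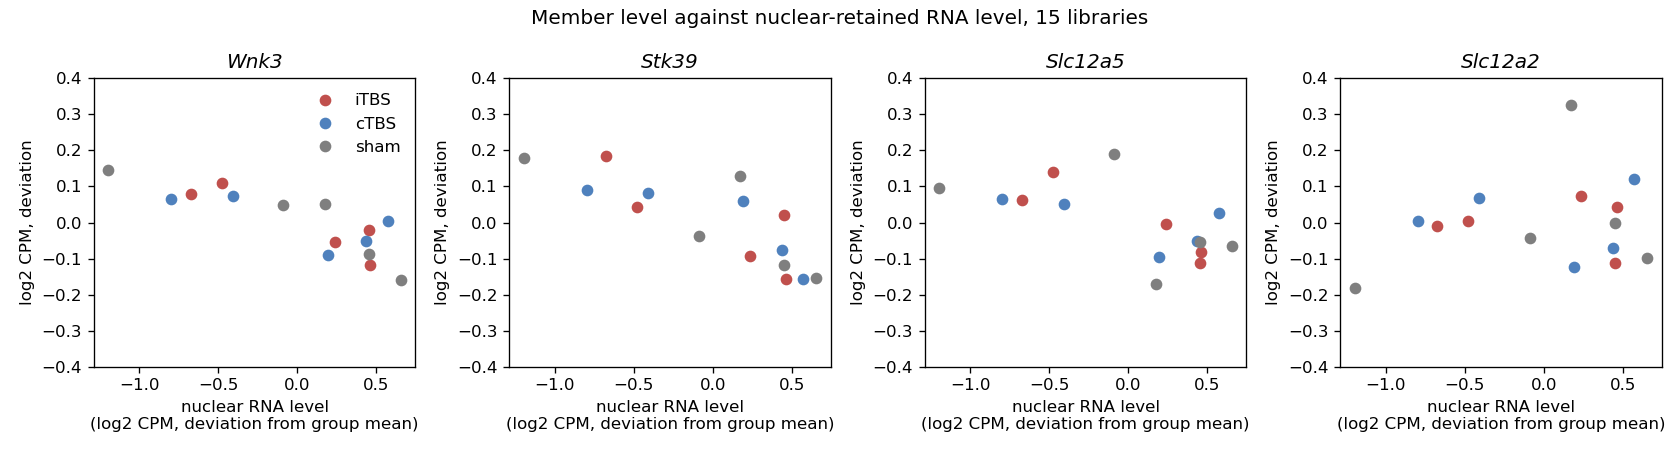
Log2 CPM of Wnk3, Stk39, Slc12a5 and Slc12a2 against the mean log2 CPM of nuclear-retained noncoding RNAs, both as deviations from the group mean, 1 point per library (15 libraries, coloured by group). Wnk3, Stk39 and Slc12a5 slope downward (r = -0.843, -0.810 and -0.645) and Slc12a2 does not (r = 0.186), with sham 2 as its highest point.

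Genes most like a member were sought among 11875 genes with a mean of at least 5 CPM, by Pearson r over deviations from group means in the 15 libraries, as a description. These values share depth, scaling and tissue makeup within a library. Slc12a5 was followed most closely by Rnf217 (r = 0.953), Islr2 (0.934), Nisch (0.926) and Bahd1 (0.923). Slc12a2 was followed by Synpo2 (0.940), Dock10 (0.882) and the bicarbonate cotransporter gene Slc4a4 (0.882), among others, and without sham 2 their r was 0.866, 0.886 and 0.789. Wnk2 was followed by Furin (0.948), Fmnl1 (0.943), Srf (0.942) and Gse1 (0.942).

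Of 33 other genes of chloride handling, 32 were tested and 0 passed in any comparison (edgeR); Slc12a1, with at most 10 counts in a library, was not tested. At unadjusted p under 0.05 iTBS over sham gave 0 higher and 1 lower of 32, where 0.952% of all genes were higher and 0.974% lower. cTBS over sham gave 6 higher and 1 lower, where 6.80% of all genes were higher and 17.6% lower. iTBS over cTBS gave 2 higher and 5 lower, where 20.0% of all genes were higher and 10.6% lower. Of the other exporter genes, Slc12a4 (KCC1) was at 12.4 ± 1.34, 13.02 ± 0.88 and 12.3 ± 0.72 CPM, and Slc12a7 (KCC4) at 4.99 ± 0.73, 5.11 ± 0.44 and 5.01 ± 0.45 CPM, in iTBS, cTBS and sham (SD, n = 5 each).

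The kinase, scaffold and turnover genes had, of 11 tested, 0 higher and 1 lower at unadjusted p under 0.05 for iTBS against sham, beside 0.952% higher and 0.974% lower of all genes. They had 3 higher and 0 lower for cTBS against sham, beside 6.80% and 17.6% of all genes. When iTBS was set against cTBS they had 0 higher and 3 lower, beside 20.0% and 10.6% of all genes. Ppp1ca, a catalytic subunit of protein phosphatase 1, which removes phosphate from these cotransporters, had the smallest p for cTBS. It was at 81.9, 76.6, 67.6, 68.8 and 77.4 CPM in iTBS 1 to 5, at 106, 89.0, 86.5, 95.9 and 86.0 CPM in cTBS 1 to 5, and at 76.2, 83.0, 65.1, 82.3 and 74.6 CPM in sham 1 to 5. The 5 cTBS libraries were all above the 5 sham and the 5 iTBS libraries, an absence of overlap with background shares of 1.34% and 3.92% as above. The log2 fold change was 0.28 ± 0.08 for cTBS against sham (edgeR, adjusted p = 0.144) and -0.31 ± 0.08 for iTBS against cTBS (adjusted p = 0.0838), so neither passed. The cTBS libraries were also low in nuclear RNA and leaned higher in several of the cell type marker lists given above. The part of both in the Ppp1ca values was not tested. Sgk1, a kinase gene induced by glucocorticoids that acts on WNK signalling, was at 69.3 ± 16.1 CPM in iTBS and 102 ± 19.1 CPM in sham (log2 fold change -0.56 ± 0.23, edgeR adjusted p = 1.00).

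Of the KCC2 partner genes, Ckb, brain creatine kinase, was at 861 ± 37.0 CPM in cTBS and 736 ± 91.4 CPM in sham (0.23 ± 0.08, edgeR adjusted p = 0.145). Neto2, an auxiliary subunit of kainate receptors that binds KCC2, was at 111 ± 9.10 CPM in iTBS and 101 ± 13.1 CPM in sham (0.14 ± 0.09, adjusted p = 1.00). Among chloride channels and bicarbonate transporters, the chloride-proton exchanger gene Clcn4 was at 192 ± 6.89 CPM in cTBS and 172 ± 14.3 CPM in sham (0.16 ± 0.07, edgeR adjusted p = 0.178). Slc4a3, a chloride-bicarbonate exchanger gene, was at 151 ± 5.53 CPM in iTBS and 144 ± 6.77 CPM in sham (0.07 ± 0.05, adjusted p = 1.00). Slc12a3, the thiazide-sensitive cotransporter of kidney, had 11 to 25 counts per library in iTBS, 3 to 14 in cTBS and 7 to 18 in sham. Its log2 fold change was 1.70 ± 0.47 for iTBS against cTBS (edgeR, adjusted p = 0.0838) and -1.43 ± 0.48 for cTBS against sham (adjusted p = 0.144), at a level of at most 0.759 CPM.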

How the data were processed

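Counts and log2-like values were used for 15 libraries, 5 per group. The authors deposited raw counts per Ensembl gene, with no normalization, and a table of variance-stabilized (VST) values, which are close to log2 counts. The submitters' processing notes list GRCm39 (mm39) and the tools STAR, fastp and DESeq2. The read counter, its strand setting and all other settings are not given in sources used for this work. Per the labels' protocols, ribosomal RNA was depleted and a stranded total RNA kit was used. Symbols came by Ensembl identifier from a table for 52073 of 56748 identifiers, and exon lengths from GENCODE gene models of an earlier assembly (GRCm38).

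The test was edgeR 4.0.16 (R 4.3.3), quasi-likelihood, on the deposited counts of all 15 libraries with a term per group, TMM scaling and the default filter, which kept 22998 genes and 99.9% of counts. Adjustment was by Benjamini-Hochberg over all tested genes, with a threshold of 0.05. SE is the log2 fold change divided by the square root of F. CPM uses TMM-scaled totals, and a list's level is the mean log2 CPM of its members (prior count 2). Relations used 100000 resamples. The balance was tested by exact permutation over the 252 assignments. Alternatives used DESeq2 1.42.0 and limma 3.58.1. The test was tried on simulated data. Per the design text each group has 5 animals.

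Members and lists were chosen with earlier results of these data known. The genes named are the 7 members, other KCC genes, the gene with the smallest p in each list of chloride genes per comparison, and the 4 genes most like Slc12a5, Slc12a2 and Wnk2; some genes under this rule are not reported here.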

Additional observations from a re-analysis of the deposited data

How the results depend on the processing

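Across 11 other settings and the omission of each of 15 libraries in turn, 1 of 546 member values passed the threshold: Wnk2 for iTBS against cTBS with limma-voom and quality weights, where 1 of 7 members was called. Another 99 of the 546 had a sign other than the main value, none of them past the threshold, and the largest size was 0.21 on the log2 scale. With a library left out, 0 members were called in each comparison (range 0 to 0). In these fits the count over all genes ran from 0 to 5726 for cTBS against sham and from 0 to 4474 for iTBS against cTBS. It was 0 throughout for iTBS against sham. The balance passed in 0 of 42 values, each 1 comparison under 1 other setting or omission, with unadjusted permutation p of at least 0.254. Leaving out 1 library, its difference ran from -0.07 to 0.12 for iTBS against sham, -0.10 to 0.09 for cTBS against sham and -0.01 to 0.06 for iTBS against cTBS.

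With the replicate block, the balance differed by 0.05 for iTBS against sham (exact sign-flip permutation p = 0.750) and 0 members were called. Same-numbered libraries correlated from -0.564 to 0.717 over deviations from group means. Such a mixed range cannot show whether the numbers pair animals. The block changed no member call and took the count over all genes for iTBS against cTBS to 5. Over all genes, edgeR called 0 in each comparison, with 443, 5623 and 7047 at unadjusted p under 0.05. For cTBS against sham, DESeq2 called 132, limma-voom 5461, and edgeR 5726 without sham 4 and 1 without iTBS 1. For iTBS against cTBS, DESeq2 called 2618, limma-voom 6853, and edgeR 4474 without iTBS 1, 3637 without sham 4 and 3380 without cTBS 5. The cause was not tested. With 5 animals per group, SEs of 0.06 to 0.08 on the log2 scale limit what could be seen for the members.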
